A study of Arabidopsis thaliana with 18 samples.

Results

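Transcript levels of 10 Arabidopsis thaliana genes of sugar starvation and amino acid catabolism were described across 6 genotypes. The genes were chosen by locus, with earlier results of these data known, and are 10 of the 33602 gene models counted in each library. Their counts set against the shares of all genes therefore describe these data and are no independent test. They fall into 3 roles. ASN1 (AT3G47340, also DIN6), GDH1 (AT5G18170), GDH2 (AT5G07440) and the glutamine amidotransferase-like gene GAT1_2.1 (AT1G15040) are grouped under the nitrogen metabolism of amino acids. BCAT-2 (AT1G10070), IVD (AT3G45300) and MCCA (AT1G03090) act in branched-chain amino acid metabolism. SEN1 (AT4G35770, also DIN1), DIN10 (AT5G20250) and DYL1 (AT1G28330) are known for responses to darkness or dormancy. The genes lie on chromosomes 1, 3, 4 and 5. All 10 passed the filter on low counts, which left 20619 genes to test.

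Plants that run short of sugar draw on amino acids as respiratory fuel. Branched-chain amino acids are deaminated and oxidised in mitochondria, glutamate dehydrogenase returns the carbon skeleton of glutamate, and the nitrogen is stored in asparagine, which carries much nitrogen per carbon. The kinase SnRK1 raises many of these transcripts when energy is low, whereas the target of rapamycin (TOR) kinase complex, of which LST8 is a subunit, promotes growth when nutrients are at hand. YAK1 is a protein kinase of the DYRK family.

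RNA sequencing counts came from whole plants at Boyes stage 1.02, grown in vitro with 0.3 % sucrose at 20 °C under 16 h of light, with no treatment. The groups were wild type Col0 and 5 mutant genotypes in Col0, namely lst8-1, yak1, the double mutant yak1lst8-1, maktor1g1 and maktor1g1maktor5g, with 3 libraries each. The series describes gene knock outs. The labels give neither the lesion of any allele, the gene that a maktor label refers to, the number of plants pooled, nor the hour of harvest.

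Total counts per library ranged from 10801464 to 17548790. The titles number 3 replicates of each genotype while the series' text speaks of 2, so p-values may measure only the spread between libraries. LST8-1 transcript stood at 48.2 to 54.8 CPM (counts scaled to library size, here with TMM factors) in Col0, at 2.13 to 2.42 in lst8-1 and at 0.928 to 2.02 in yak1lst8-1. YAK1 transcript exceeded the wild type level where the label is yak1, with 247 to 398 CPM against 99.3 to 138 in Col0, and at 265 to 409 in the libraries labelled yak1lst8-1. Gene counts do not show whether that transcript is intact, so every comparison below follows the labels. Shoot markers (6 genes, among them Rubisco small subunits) summed to 29125 CPM or more in every library and root markers (6 genes) to 2490.5 CPM or more, so transcripts of shoot and root were present throughout. In such bulk samples, fewer cells of a type and less RNA per cell cannot be told apart.

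Levels of the genes differed over a wide range. Per kb of gene model, the order of mean levels in Col0 was DYL1 (334 CPM per kb), DIN10 (244), GDH2 (61.3), SEN1 (47.6), ASN1 (34.0), GDH1 (30.4), MCCA (17.8), IVD (14.1), BCAT-2 (1.62) and GAT1_2.1 (1.22). Libraries of neighbours in that order overlapped except between DIN10 and GDH2, between GDH1 and MCCA, and between IVD and BCAT-2. In lst8-1 the rank of GAT1_2.1 was 8 of 10, at 24.8 ± 5.20 CPM per kb (SD, n = 3), where its libraries overlapped with those of GDH1 and IVD. The plot of levels by library shows every value behind these means.

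**Figure D1:**
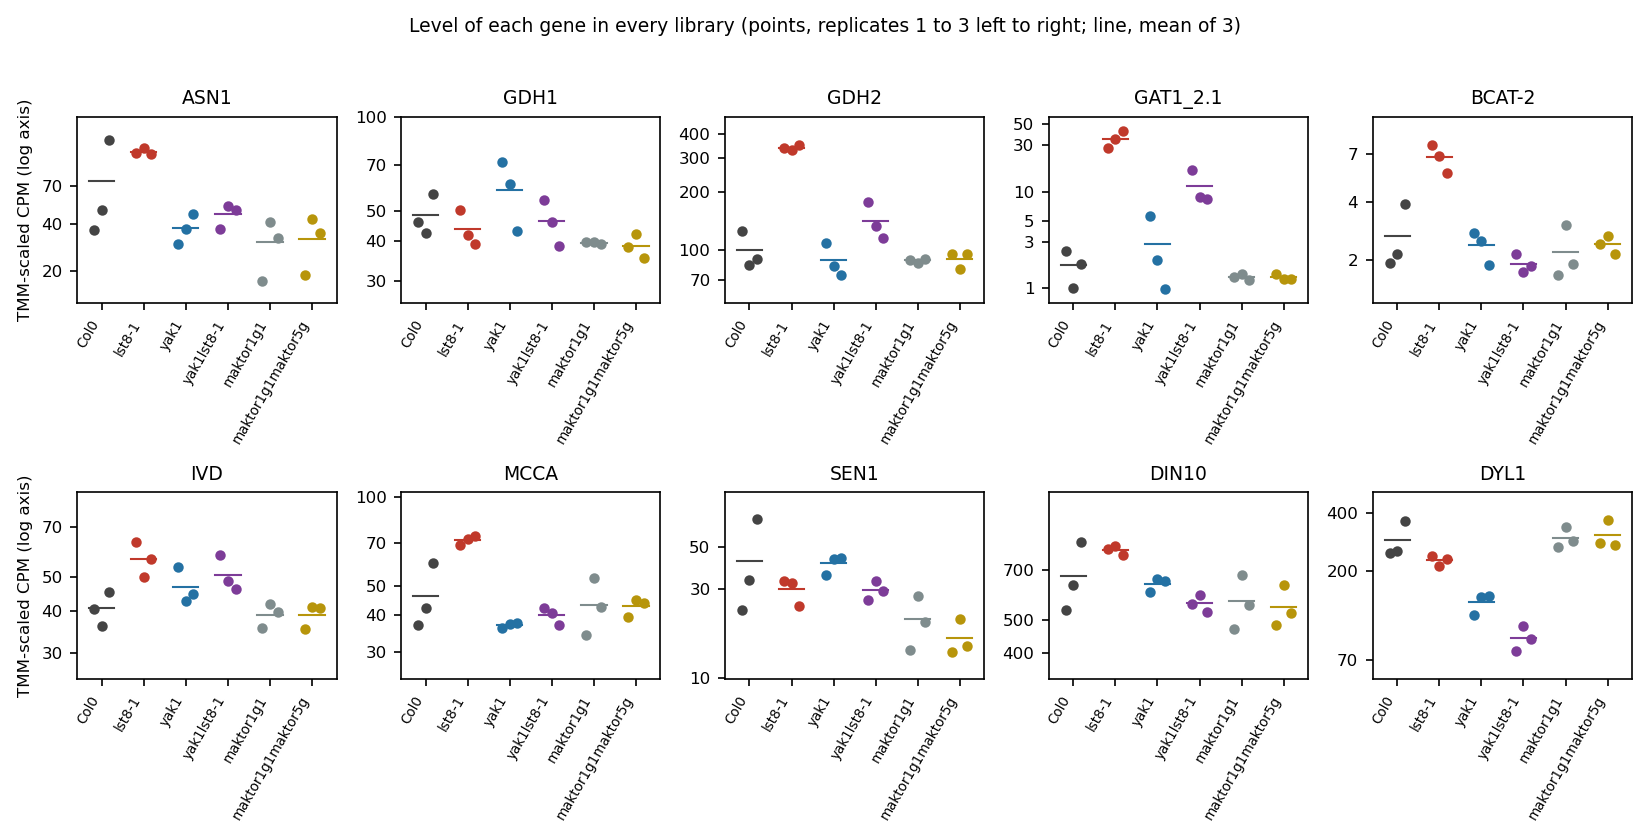
Level of each of the 10 genes in every library, in TMM-scaled CPM on a log axis that differs between panels. Points are the 3 libraries of a genotype and the short line is their mean. GDH2, GAT1_2.1, BCAT-2 and MCCA have their 3 lst8-1 points above every other point, and DYL1 has its yak1 and yak1lst8-1 points below every other point.

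The first comparison was lst8-1 against Col0. GDH2, GAT1_2.1, BCAT-2, IVD and MCCA rose in lst8-1, by log2 fold changes of 0.48 to 4.32. They are 1 of the 2 glutamate dehydrogenase genes among the 10, the glutamine amidotransferase-like gene and the 3 genes of branched-chain metabolism. None of the 10 fell, and SEN1, DIN10, DYL1, ASN1 and GDH1 did not pass the test (edgeR quasi-likelihood test, p adjusted over all 20619 genes, called below 0.05). Of all genes tested, 27.5 % were called in this comparison and 14.1 % were called higher. Libraries of both genotypes did not overlap for 6 of the 10 genes, the 5 that rose and DYL1, and for 40 % of all genes. At an unadjusted p below 0.05, 5 of the 10 were higher and 1 was lower, and DESeq2 also called 5 higher and 0 lower. The median log2 fold change was 0.55 over the 10 genes and 0.00097 over all genes tested.

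GDH2 (chr5:2355759-2358241, plus strand, TAIR10.1) encodes the α subunit of NAD-dependent glutamate dehydrogenase, the mitochondrial enzyme that deaminates glutamate. Its level in the 3 lst8-1 libraries was 338, 331 and 352 CPM, and in Col0 it was 126, 84.5 and 90.1 CPM. All lst8-1 libraries lay above all Col0 libraries. The log2 fold change was 1.77 ± 0.17 (SE), at an adjusted p of 1.445e-06. The yak1lst8-1 libraries stood between them at 179, 134 and 116 CPM, and overlapped with the highest Col0 library. The libraries of yak1 had 109, 83.2 and 74.5 CPM, and those of both maktor genotypes 79.8 to 95.9 CPM, within or near the Col0 range. Over the 6 genotypes, mean levels thus ran from lst8-1 (340 ± 10.8 CPM, SD, n = 3) through yak1lst8-1 (143 ± 32.6) and Col0 (100.1 ± 22.4) to the other 3 genotypes, whose libraries overlapped with those of Col0.

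GDH1 (chr5:6006035-6008726, plus strand), which encodes the β subunit of the same enzyme, did not follow. It had 50.3, 42.0 and 39.3 CPM in lst8-1 and 46.0, 42.7 and 56.6 CPM in Col0, and the groups overlapped. Its log2 fold change was −0.14 ± 0.16 (adjusted p = 0.539, 95 % interval −0.49 to 0.20). The ratio of GDH2 to GDH1, in counts per kb, was 6.56 to 8.74 in lst8-1 and 1.55 to 2.66 in Col0, without overlap. In yak1lst8-1 that ratio was 2.83 to 3.21, below every lst8-1 library. Both differences gave p = 0.1 in a two-sided exact permutation test, the smallest p that 3 against 3 libraries allow. Groups without overlap always give that p, so the test adds nothing to the lack of overlap. Summed per kb, GDH1 and GDH2 came to 229 to 240 CPM in lst8-1 and to 78.5 to 106 in Col0. GDH3, the least abundant gene of the family, fell in lst8-1 from 1.18 to 0.377 CPM (log2 fold change −1.68 ± 0.42, adjusted p = 0.00556). That fall rests on low counts, at most 8 in an lst8-1 library and 28 in a Col0 library. Coding sequences of GDH1 and GDH2 are 74.5 % identical, with a longest identical run of 41 bases, and reads with an equally good second alignment had been removed before counting.

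The stretches directly before both genes are shown because they belong to partner subunits, of which GDH2 rose in lst8-1 and GDH1 was not called. They are the 250 bases before the annotated gene start on the gene's strand (RefSeq, TAIR10.1), GDH1 at chr5:6005785-6006034 and GDH2 at chr5:2355509-2355758, both on the plus strand. Capitals mark the letters ACGTG on either strand, the core of elements that bZIP factors bind.
GDH1: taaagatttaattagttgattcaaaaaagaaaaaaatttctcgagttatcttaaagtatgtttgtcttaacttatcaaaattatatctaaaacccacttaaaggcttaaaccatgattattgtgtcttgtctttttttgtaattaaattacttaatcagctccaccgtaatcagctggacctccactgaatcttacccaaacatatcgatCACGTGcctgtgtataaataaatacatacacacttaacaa
GDH2: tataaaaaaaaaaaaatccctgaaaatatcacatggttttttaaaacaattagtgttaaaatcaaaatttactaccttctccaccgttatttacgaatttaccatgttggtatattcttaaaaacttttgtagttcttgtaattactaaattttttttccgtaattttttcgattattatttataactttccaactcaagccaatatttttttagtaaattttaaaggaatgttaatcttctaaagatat
GDH1 holds CACGTG 40 bases before its start, which counts as 2 overlapping matches on opposite strands, and the GDH2 window holds no match.

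GAT1_2.1 (chr1:5179887-5181402, minus strand) encodes a class I glutamine amidotransferase-like protein of mitochondria. It had the largest fold change of the 10 genes: 28.0, 34.6 and 42.6 CPM in lst8-1 against 2.40, 1.00 and 1.76 CPM in Col0, where a library held 13 to 36 counts. The groups did not overlap, and the log2 fold change was 4.32 ± 0.43 (adjusted p = 5.014e-06). The yak1lst8-1 libraries were intermediate at 16.8, 8.76 and 8.35 CPM, above every Col0 library and below every lst8-1 library. In yak1 the libraries spread from 0.972 to 5.59 CPM and overlapped with Col0, and the maktor libraries had 1.20 to 1.41 CPM. Its gene model overlaps AT1G15030 by 163 bases and the long non-coding RNA AT1G05147 by 553 bases on the opposite strand. The labels call the libraries stranded but do not state that counting used the strand, so its counts are uncertain to that extent. Annotated genes on the opposite strand also overlap ASN1 (11 bases), GDH1 (166), BCAT-2 (161) and DIN10 (82), and none overlaps GDH2, IVD, SEN1 or DYL1. The 250 bases before the start of GAT1_2.1 are given because it moved most. They lie on the minus strand at chr1:5181403-5181652 and hold neither ACGTG nor ACTCAT. They do hold TATCCA, counted below and not capitalised here, at 216 and 146 bases before the start.
GAT1_2.1: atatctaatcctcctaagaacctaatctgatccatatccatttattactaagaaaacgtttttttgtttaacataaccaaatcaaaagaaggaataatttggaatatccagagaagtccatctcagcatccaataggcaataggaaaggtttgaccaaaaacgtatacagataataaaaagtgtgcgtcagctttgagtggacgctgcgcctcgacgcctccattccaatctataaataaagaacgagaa

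ASN1 (chr3:17437840-17441431, minus strand) encodes the asparagine synthetase that is known for its rise in darkness. Its lst8-1 libraries were close together at 114, 122 and 112 CPM, while those of Col0 had 36.7, 49.4 and 139 CPM. Replicate 3 of Col0 lay above every lst8-1 library, and the log2 fold change of 0.63 ± 0.43 did not pass the test (adjusted p = 0.312, 95 % interval −0.32 to 1.57). Without that library the value was 1.43 (adjusted p = 0.0108), and leaving out each other library in turn kept it from passing. ASN1 also had the highest gene-wise coefficient of variation among the 10 genes, at 37.3 %. Of its relatives, ASN2 had 104 to 131 CPM in lst8-1 and ASN3 24.9 to 31.2, and neither passed the test against Col0. The ratio of ASN1 to ASN2 per kb was 0.817 to 1.09 in lst8-1 and 0.238 to 0.994 in Col0. These ranges overlapped (exact permutation test, two-sided p = 0.2). In yak1lst8-1 the ratio was 0.220 to 0.316, below every lst8-1 library.

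Replicate 3 was the highest of the Col0 libraries for 8 of the 10 genes, against 33.2 % of all genes tested. DIN10 (chr5:6833564-6836862, plus strand), a raffinose synthase family gene, had 846 CPM there and 537 and 632 CPM in the other Col0 libraries, against 808, 826 and 774 in lst8-1. Its log2 fold change of 0.26 ± 0.14 (adjusted p = 0.199) became 0.45 (adjusted p = 0.018) without that library. SEN1 (chr4:16944878-16946266, plus strand), a dark-inducible gene with a rhodanese-like domain, spread from 23.0 to 70.7 CPM in Col0, a range that held all 3 lst8-1 libraries (24.3 to 32.9). Its log2 fold change was −0.51 ± 0.33 (adjusted p = 0.284) and turned to 0.08 without Col0 replicate 3. With that library left out, 7 of the 10 genes were called higher in lst8-1 instead of 5. The cause was not tested.

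BCAT-2 (chr1:3288087-3290471, plus strand) encodes a branched-chain aminotransferase, the enzyme type that takes the amino group from leucine, isoleucine and valine. It was a low transcript, at 7.85, 6.91 and 5.61 CPM in lst8-1 and 1.93, 2.15 and 3.88 CPM in Col0. The groups did not overlap and the log2 fold change was 1.34 ± 0.24 (adjusted p = 0.000551). BCAT-1, the mitochondrial aminotransferase, fell instead, from 29.7 ± 1.71 to 20.3 ± 3.39 CPM (SD, n = 3), with a log2 fold change of −0.55 ± 0.13 (adjusted p = 0.00302). The ratio of BCAT-2 to BCAT-1 per kb was 0.233 to 0.452 in lst8-1 and 0.0622 to 0.139 in Col0 (exact permutation test, two-sided p = 0.1, the smallest possible). BCAT-1 was thus still the more abundant transcript per kb in every library. Their coding sequences are 65.9 % identical, with a longest identical run of 17 bases.

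MCCA (chr1:739544-744184, plus strand) encodes the biotin-carrying α subunit of 3-methylcrotonyl-CoA carboxylase, an enzyme of leucine breakdown. Its libraries had 68.9, 72.3 and 74.0 CPM in lst8-1 and 37.1, 42.2 and 59.9 CPM in Col0, without overlap. The log2 fold change was 0.63 ± 0.15 (adjusted p = 0.00487). MCCB, the gene of the β subunit, showed no called difference, with 46.9 ± 2.55 CPM in lst8-1 against 50.3 ± 4.09 in Col0 (SD, n = 3; adjusted p = 0.334). The ratio of MCCA to MCCB per kb was 1.08 to 1.30 in lst8-1 and 0.617 to 0.852 in Col0 (exact permutation test, two-sided p = 0.1, the smallest possible). MCCA overlaps AT1G03100 by 300 bases and the long non-coding RNA AT1G04157 by 225 bases on the opposite strand, so its counts carry the uncertainty named for GAT1_2.1.

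**Figure D2:**
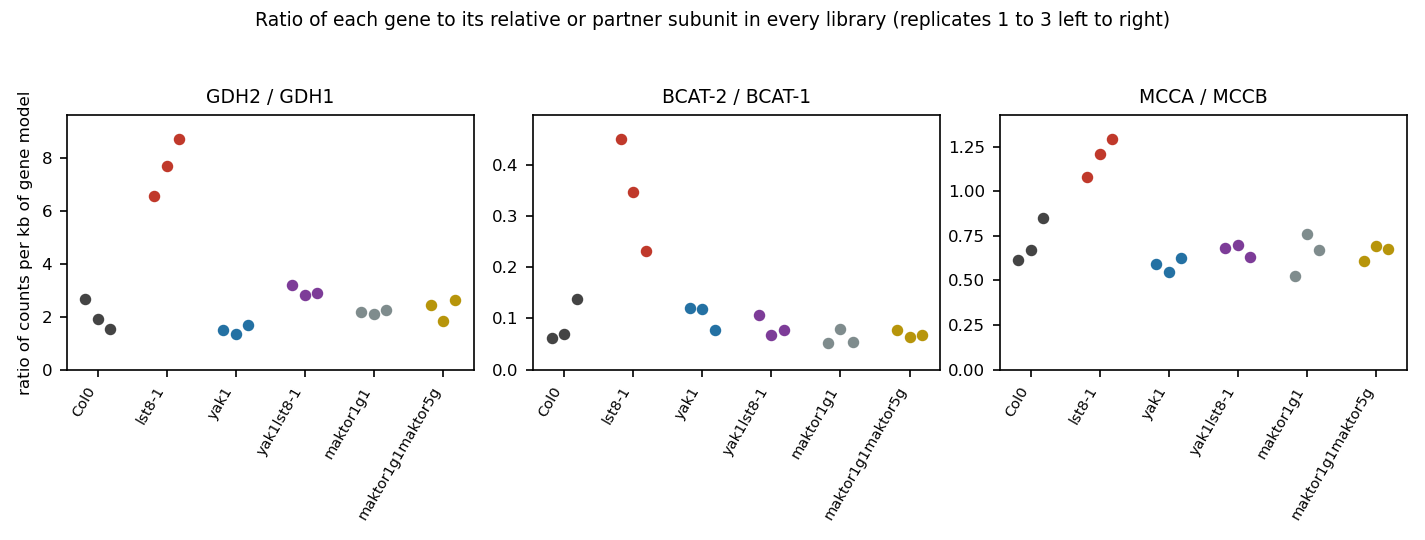
Ratio of GDH2 to GDH1, of BCAT-2 to BCAT-1 and of MCCA to MCCB in every library, from counts per kb of gene model, with axes that start at 0. The lst8-1 libraries lie above those of all other genotypes in each panel, for GDH2 to GDH1 at 6.56 to 8.74.

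IVD (chr3:16621452-16625043, minus strand) encodes isovaleryl-CoA dehydrogenase, which acts before the carboxylase in leucine breakdown. It had 63.2, 50.0 and 56.7 CPM in lst8-1 and 40.4, 36.1 and 45.2 CPM in Col0, and the groups did not overlap. Its log2 fold change of 0.48 ± 0.11 (adjusted p = 0.00445) was the smallest of the 5 that were called. DYL1 (chr1:9933786-9935440, minus strand), a dormancy-associated gene repressed by auxin, had 241, 213 and 233 CPM in lst8-1 and 250, 254 and 363 in Col0, without overlap but short of the test (log2 fold change −0.34 ± 0.15, adjusted p = 0.114). All 5 calls held when each library of the comparison was left out in turn.

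The second comparison, yak1lst8-1 against lst8-1, followed the libraries labelled yak1 within the lst8-1 background. It shares the lst8-1 libraries with the first. ASN1, GDH2, GAT1_2.1, BCAT-2, MCCA, DIN10 and DYL1 fell in yak1lst8-1 relative to lst8-1, 7 of the 10 genes, with log2 fold changes from −1.81 to −0.52. Of all genes tested, 33 % were called and 16.6 % were called lower. The same 7 genes had libraries without overlap, as had 46.1 % of all genes. None of the 10 rose at the adjusted threshold, at an unadjusted p below 0.05 or with DESeq2. The median log2 fold change was −1.05 over the 10 genes and −0.016 over all genes tested.

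BCAT-2 had 2.16, 1.73 and 1.86 CPM in yak1lst8-1, all below the 5.61 to 7.85 CPM of lst8-1, and fell by 1.81 ± 0.26 on the log2 scale (adjusted p = 4.641e-05). Its yak1lst8-1 libraries overlapped with Col0, and the log2 fold change between them was −0.47 ± 0.28 (adjusted p = 0.261). GAT1_2.1 fell by 1.61 ± 0.34 (adjusted p = 0.00252) and GDH2 by 1.25 ± 0.16 (adjusted p = 3.491e-05), each without overlap of libraries. MCCA had 42.4, 40.6 and 37.0 CPM in yak1lst8-1, a drop of 0.84 ± 0.15 from lst8-1 (adjusted p = 0.000479), and those libraries lay within the Col0 range but for the lowest. The ratio of MCCA to MCCB in yak1lst8-1 was 0.631 to 0.699, below every lst8-1 library.

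ASN1 had 37.5, 52.6 and 48.9 CPM in yak1lst8-1, below all lst8-1 libraries, and fell by 1.33 ± 0.45 (adjusted p = 0.035). That call was lost when any of the 6 libraries of the comparison was left out (adjusted p = 0.0627 to 0.108) and with no filter on low counts (adjusted p = 0.0525), with leave-one-out log2 fold changes of −1.43 to −1.19. DIN10 had 557, 591 and 530 CPM against 774 to 826 in lst8-1, a drop of 0.52 ± 0.14 (adjusted p = 0.0104). Both fell without overlap of libraries. IVD stayed near its lst8-1 level, at 57.9, 48.7 and 46.1 CPM (log2 fold change −0.15 ± 0.11, adjusted p = 0.33, 95 % interval −0.40 to 0.10). GDH1 differed by 0.08 ± 0.16 (adjusted p = 0.727) and SEN1 by −0.03 (adjusted p = 0.953).

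**Figure D3:**
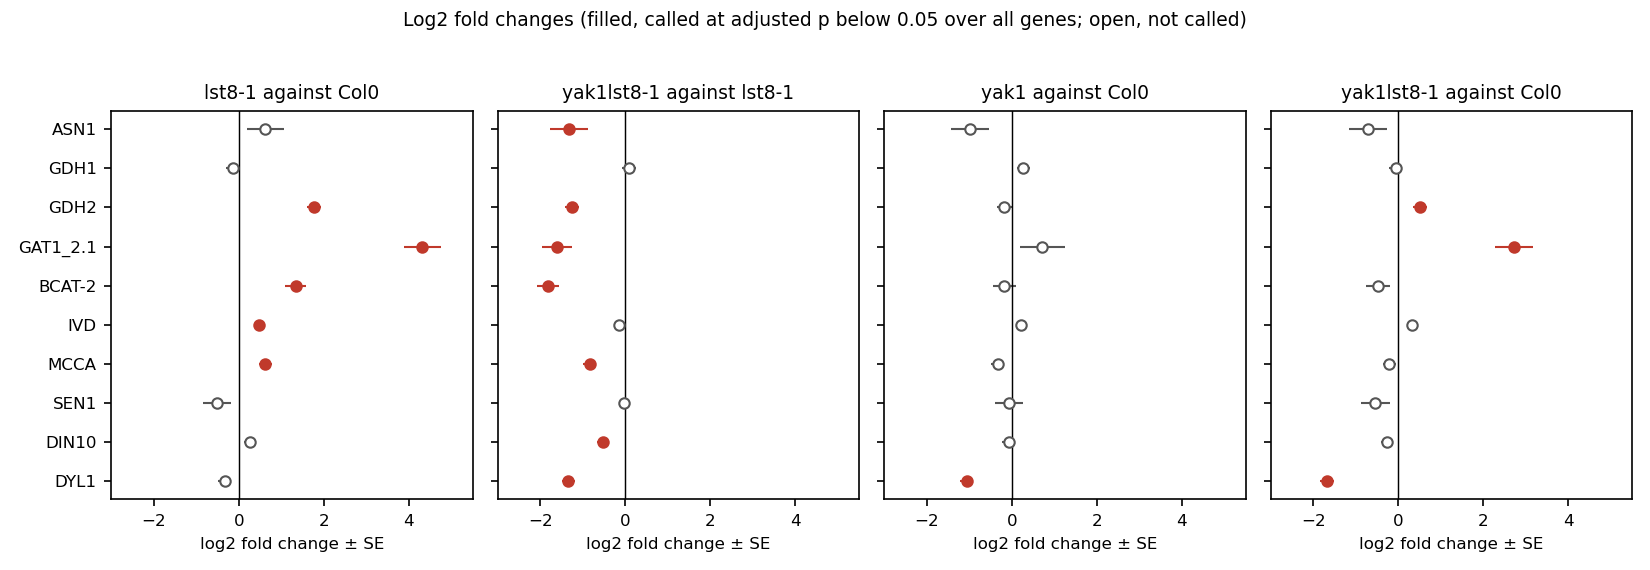
Log2 fold changes of the 10 genes in 4 comparisons, with bars of 1 SE; filled points were called at an adjusted p below 0.05 over all genes tested, and a missing bar means that no SE could be taken. Filled points are 5 to the right in lst8-1 against Col0 and 7 to the left in yak1lst8-1 against lst8-1; panels that name the same genotype share its libraries.

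The third comparison was yak1 against Col0. DYL1 fell in yak1, and it was the only member of the 10 that passed the test there. Its yak1 libraries had 120, 148 and 149 CPM, all below the Col0 libraries, with a log2 fold change of −1.06 ± 0.16 (adjusted p = 0.000351), and the call held with each library of the comparison left out (−1.15 to −0.85). Of all genes tested, 11.9 % were called and 6.11 % were called lower. That is 1186 genes higher and 1260 lower, or 905 higher and 1541 lower when libraries were scaled by their totals. None of the 10 rose, also at an unadjusted p below 0.05, where 3 were lower, and with DESeq2. ASN1 (29.9, 37.3 and 46.4 CPM) had a log2 fold change of −0.99 ± 0.45 (adjusted p = 0.179), which became −0.18 (adjusted p = 0.799) without Col0 replicate 3. The median over the 10 genes was −0.12, against −0.0070 over all genes.

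DYL1 was the only gene of the 10 whose yak1 and yak1lst8-1 libraries all lay below all libraries of the other genotypes. In yak1lst8-1 it had 77.8, 104 and 89.4 CPM. It fell by 1.34 ± 0.16 against lst8-1 (adjusted p = 1.039e-05), by 1.68 ± 0.16 against Col0 (adjusted p = 1.61e-06) and by 0.62 ± 0.16 against yak1 (adjusted p = 0.0408), the last without a call when yak1 replicate 2 or 3 or yak1lst8-1 replicate 1 or 3 was left out (adjusted p up to 0.137) or with no filter on low counts (adjusted p = 0.053). AT2G33830, a gene of the same dormancy and auxin associated family, fell in lst8-1 against Col0, by 0.55 ± 0.16 (adjusted p = 0.0195), was not called in yak1 (log2 fold change −0.38 ± 0.16, adjusted p = 0.145) and fell in yak1lst8-1 against Col0, by 1.04 ± 0.16 (adjusted p = 0.00028).

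Clock markers differed from Col0 in every mutant genotype. Of 4 morning markers, 3 were higher in lst8-1, in yak1 and in yak1lst8-1. All 4 evening markers were lower in yak1 and in yak1lst8-1, 1 was higher in lst8-1, 2 in maktor1g1 and 1 in maktor1g1maktor5g. Of all genes tested, 27.5 % were called in lst8-1, 11.9 % in yak1, 18.9 % in yak1lst8-1 and 0.0679 % in each maktor genotype against Col0. The 1 of 4 evening markers called in lst8-1 is near its share. The summed evening markers stood at 441 to 472 CPM in Col0, 294 to 310 in yak1 and 229 to 257 in yak1lst8-1, and the morning markers at 266 to 304, 324 to 374 and 442 to 484 CPM. In lst8-1 the morning markers summed to 366 to 373 CPM and the evening markers to 449 to 534. The evening markers summed to 574 to 627 CPM in maktor1g1 and 584 to 655 in maktor1g1maktor5g, above every Col0 library. Shoot markers summed to 34847 to 37434 CPM in Col0, 29563 to 33462 in lst8-1, 39618 to 54959 in yak1 and 41936 to 49015 in yak1lst8-1. In yak1lst8-1 against lst8-1, 5 of 6 shoot markers were higher, as were 16.4 % of all genes. Root markers summed to 3149 to 3375.1 CPM in Col0, 3017.5 to 4372.1 in lst8-1, 2490.5 to 2658.4 in yak1 and 2713.1 to 3005.9 in yak1lst8-1. Most of that sum was the root marker PYK10, with means of 3026 CPM in Col0, 2258 in yak1 and 2523 in yak1lst8-1. Against Col0, 5 of 6 root markers had a positive log2 fold change and 1 a negative one, in yak1 (median 0.16) and in yak1lst8-1 (median 0.31). The part of clock phase and of the share of shoot in the values of the 10 genes was not tested.

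In yak1lst8-1 against Col0, GDH2 and GAT1_2.1 rose and DYL1 fell, 3 of the 10 genes where 18.9 % of all genes were called, 10.3 % higher and 8.65 % lower. Over all genes that is 2121 higher and 1784 lower, or 1738 higher and 2166 lower when libraries were scaled by their totals. GAT1_2.1 was higher by 2.72 ± 0.45 on the log2 scale (adjusted p = 0.000594) without overlap. GDH2 was higher by 0.51 ± 0.16 (adjusted p = 0.0386) with overlapping libraries, and that call was lost without Col0 replicate 2 or 3 or yak1lst8-1 replicate 1 or 2 (adjusted p up to 0.198). It was also lost with library totals (adjusted p = 0.0904), with no filter on low counts (adjusted p = 0.0606) and with only the groups compared (adjusted p = 0.141). IVD had libraries above all Col0 libraries but missed the threshold, with 0.33 ± 0.12 (adjusted p = 0.054). It was called at an adjusted p of 0.0329 without Col0 replicate 3 and of 0.0452 without yak1lst8-1 replicate 3.

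Against yak1, the yak1lst8-1 libraries had higher GAT1_2.1 (2.00 ± 0.42, adjusted p = 0.0168) and GDH2 (0.68 ± 0.17, adjusted p = 0.0332), and lower DYL1, 3 of 10 where 2.99 % of all genes were called, 1.88 % higher and 1.11 % lower. The GAT1_2.1 call was lost without yak1 replicate 2 or yak1lst8-1 replicate 1, and that of GDH2 without yak1 replicate 2 or 3 or yak1lst8-1 replicate 1 or 2. Both calls were also lost with only the groups compared (adjusted p = 0.214 and 0.189), and that of GDH2 with library totals (adjusted p = 0.0638). None of the other 7 genes was called. GDH1 was called without yak1 replicate 3, lower at −0.52 (adjusted p = 0.0456), and in yak1 against Col0 also without that library, higher at 0.46 (adjusted p = 0.0479).

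Whether the difference between yak1lst8-1 and lst8-1 departs from that between yak1 and Col0 was tested as an interaction, the first log2 fold change minus the second. GDH2 (−1.08 ± 0.23, adjusted p = 0.0179) and BCAT-2 (−1.64 ± 0.38, adjusted p = 0.0227) were called, 2 of the 10 genes where 3.47 % of all genes were called and 1.35 % lower. GAT1_2.1 had the largest value, −2.32 ± 0.63, and was not called (adjusted p = 0.0571, adjusted p = 0.0278 with DESeq2). For DYL1 the interaction was −0.28 ± 0.22 (adjusted p = 0.549, 95 % interval −0.76 to 0.19). The GDH2 call was lost without Col0 replicate 2 or yak1lst8-1 replicate 2 (adjusted p up to 0.0553), and with only the groups compared (adjusted p = 0.0683). The BCAT-2 call was lost without Col0 replicate 2, lst8-1 replicate 1 or 2, yak1 replicate 1 or 2, or yak1lst8-1 replicate 2 or 3 (adjusted p up to 0.0642). MCCA passed without Col0 replicate 3 (−0.74, adjusted p = 0.0249), and GAT1_2.1 without yak1 replicate 3 or yak1lst8-1 replicate 1. None of the 10 had a positive interaction that was called, also at an unadjusted p below 0.05 and with DESeq2.

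In maktor1g1 and in maktor1g1maktor5g, none of the 10 genes was called against Col0 with edgeR, where 0.0679 % of all genes were called in each. At an unadjusted p below 0.05, 2 were lower and 0 higher in each. DESeq2 called 0 in maktor1g1 and 1 in maktor1g1maktor5g, SEN1. Its libraries there had 13.8, 20.6 and 14.7 CPM, all below the Col0 libraries of 23.0, 33.3 and 70.7 CPM. Its log2 fold change was −1.37 ± 0.35, with an adjusted p of 0.16 by edgeR and of 0.0171 by DESeq2, and without Col0 replicate 3 it was −0.78 (adjusted p = 0.307 by edgeR). In maktor1g1 SEN1 had 14.1, 27.5 and 20.0 CPM and overlapped with Col0 (−1.05 ± 0.34, adjusted p = 0.407), and the value without Col0 replicate 3 was −0.46.

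ASN1 had 17.5, 41.4 and 32.9 CPM in maktor1g1 and 19.0, 42.9 and 35.2 CPM in maktor1g1maktor5g, and both sets overlapped with Col0. The log2 fold changes of −1.30 ± 0.45 (adjusted p = 0.437) and −1.22 ± 0.45 (adjusted p = 0.338) became −0.49 and −0.41 without Col0 replicate 3. Replicate 2 was the highest maktor1g1 library for 9 of the 10 genes and the highest maktor1g1maktor5g library for 8, against 35.9 % and 33 % of all genes tested. Between both maktor genotypes none of the 10 was called by edgeR, at an unadjusted p below 0.05 or by DESeq2 either, where 0.0097 % of all genes were called.

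Over the 18 libraries, log2 levels of GDH2 and GAT1_2.1 had a Pearson r of 0.94, those of BCAT-2 and MCCA 0.91 and those of ASN1 and DIN10 0.91. GDH1 and GDH2 had 0.016. DYL1 stood apart, with a mean r of −0.086 with the other 9 genes, whereas the mean was 0.58 for ASN1, for BCAT-2 and for DIN10. The 18 libraries come from 6 genotypes and differ in depth, so differences between genotypes enter every r. The tested gene most like GDH2 besides AT5G26260 (0.98) was ERD5 (0.98), a proline dehydrogenase. Those most like GAT1_2.1 were UMAMIT33 (0.98) and CYP94B1 (0.97), and those most like SEN1 were TPS11 (0.92) and AT2G27830 (0.91). DYL1 was most like AT3G47160 (0.98) and XBAT31 (0.97), and IVD most like ABS2 (0.93) and DIN2 (0.92).

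Other genes of the same pathways were counted from 7 lists of 77 genes in all, of which 72 were tested. These lists too were chosen with earlier results of these data known, so their counts are descriptions. In lst8-1 against Col0, 27 rose and 11 fell, and in yak1lst8-1 against lst8-1, 10 rose and 22 fell, with medians of 0.10 and −0.02. Over all genes 14.1 % rose and 13.4 % fell in the first comparison, and 16.4 % rose and 16.6 % fell in the second, so the 11 that fell and the 10 that rose, of 72, are near those shares. Breakdown of other amino acids had the largest share of rises in lst8-1 among the 7 lists: 12 of 19 rose and 1 fell, with a median of 0.50. ERD5, the proline dehydrogenase that starts proline breakdown, went from 78.9 ± 8.44 to 534 ± 30.4 CPM (SD, n = 3; log2 fold change 2.76 ± 0.13, adjusted p = 2.008e-10). MGL, methionine γ-lyase, rose by 2.22 ± 0.18 (adjusted p = 1.558e-07) and AT5G38710, the other proline dehydrogenase gene, by 1.65 ± 0.23 (adjusted p = 5.528e-05).

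In yak1lst8-1 against lst8-1, 9 of these 19 genes fell and 3 rose, with a median of −0.29. Over all genes 16.6 % fell and 16.4 % rose in that comparison, so the 3 rises of 19 are near that share. ERD5 fell by 2.24 ± 0.13 (adjusted p = 2.169e-09) to 113 ± 24.7 CPM. ALDH5F1, succinic semialdehyde dehydrogenase of the GABA shunt, fell by 0.70 ± 0.10 (adjusted p = 3.082e-05). AT4G33150, which encodes the bifunctional enzyme that starts lysine breakdown, fell by 0.83 ± 0.12 (adjusted p = 3.887e-05).

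Of 18 other genes of branched-chain breakdown, 7 rose and 2 fell in lst8-1 (median 0.12), which is 50 % called where 27.5 % of all genes were. In yak1lst8-1 against lst8-1, 1 rose and 4 fell (median 0.0085), 27.8 % called and below the 33 % of all genes. ALDH6B2, methylmalonate semialdehyde dehydrogenase of valine breakdown, rose by 0.69 ± 0.07 (adjusted p = 2.308e-06) and fell by 0.55 ± 0.07 in the second comparison (adjusted p = 2.317e-05). BCE2 (also DIN3), the acyltransferase subunit of the branched-chain keto acid dehydrogenase, rose by 0.67 ± 0.10 (adjusted p = 6.208e-05). ETFALPHA and ETFBETA, the electron transfer flavoprotein that takes electrons from IVD, fell in yak1lst8-1 by 0.43 ± 0.09 (adjusted p = 0.0012) and 0.42 ± 0.09 (adjusted p = 0.00194). Among 5 aminotransferases of synthesis and methionine chain elongation, 1 rose and 2 fell in lst8-1, and BCAT4, of methionine chain elongation, fell by 0.92 ± 0.17 (adjusted p = 0.000945).

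Of 16 other dark-inducible genes and SnRK1 markers, 5 rose and 4 fell in lst8-1 (median 0.09). In yak1lst8-1 against lst8-1, 1 rose and 6 fell (median −0.21). Over all genes 14.1 % rose and 13.4 % fell in the first comparison, and 16.4 % rose and 16.6 % fell in the second. The list mixes genes raised and lowered by SnRK1, so rises and falls in it do not share 1 meaning. MIOX2, a myo-inositol oxygenase, rose by 0.93 ± 0.15 (adjusted p = 0.000326) and fell by 0.94 ± 0.15 in the second comparison (adjusted p = 0.000237), whereas EXPA10, an expansin lowered by SnRK1, moved the other way in both. BCE2 is counted in this list too. So is AT2G33830, of the same family as DYL1, which was 1 of the 4 genes that fell in lst8-1. The SnRK1 catalytic subunits KIN11 and KIN10 rose in lst8-1 by 0.31 ± 0.06 (adjusted p = 0.000944) and 0.22 ± 0.07 (adjusted p = 0.023), the 2 of 7 subunits called there, or 28.6 %, close to the 27.5 % of all genes.

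Of 5 other asparagine and glutamate dehydrogenase genes, 1, GDH3, was called in lst8-1, lower, and 3 rose and 2 fell in yak1lst8-1 against lst8-1. Of all genes tested, 27.5 % were called in the first comparison and 33 % in the second. ASN2 was among those that rose (0.44 ± 0.10, adjusted p = 0.0027), while ASN1 fell in the same comparison. Among 9 bZIP factors of groups C and S1, 4 were tested: BZIP9 rose in lst8-1 by 0.91 ± 0.09 (adjusted p = 9.549e-07), and BZIP25 and BZO2H1 fell by 0.43 ± 0.09 (adjusted p = 0.00136) and 0.29 ± 0.07 (adjusted p = 0.00525). Of 5 leaf senescence markers 4 were tested, and 1 of them, NYE1, rose in lst8-1, by 0.95 ± 0.19 (adjusted p = 0.00128). SAG12 had a count of 0 in every library outside yak1lst8-1, which allows up to 0.243 CPM in the shallowest of them (3 counts, counting error only).

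**Figure D4:**
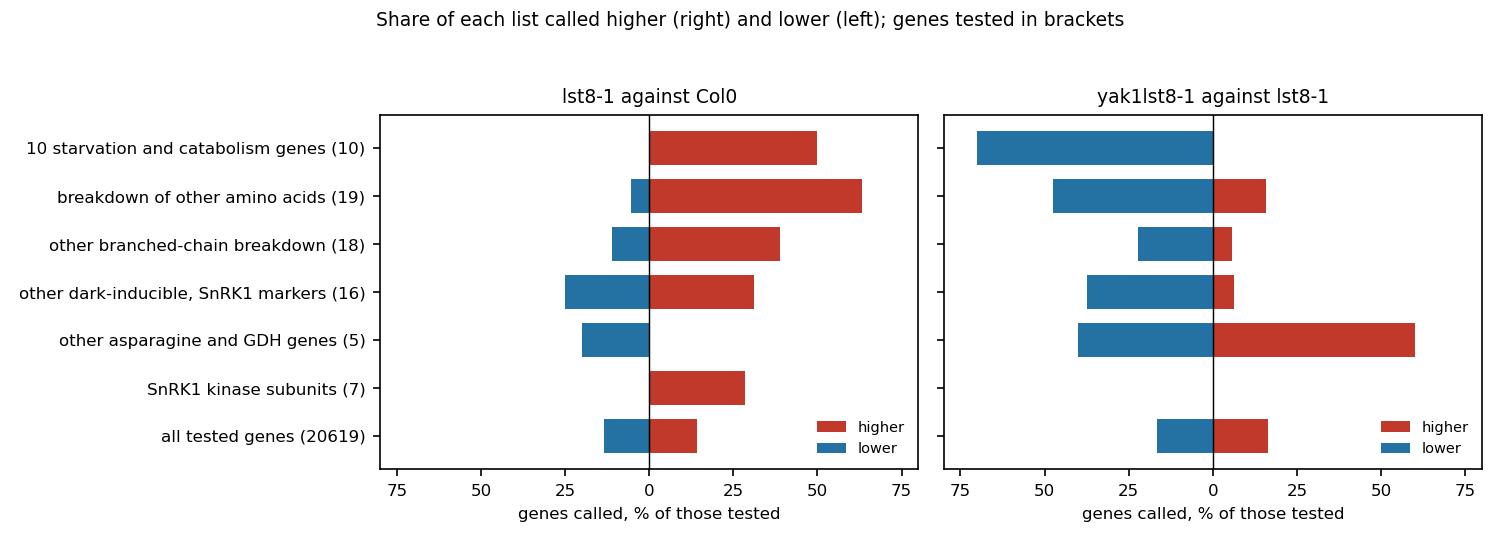
Percent of tested genes called higher (bars to the right) and lower (bars to the left) in lst8-1 against Col0 and in yak1lst8-1 against lst8-1, for the 10 genes, 5 of the 7 pathway lists and all tested genes. Of the 10 genes 50 % were called higher in the first and 70 % lower in the second. Over all genes 14.1 % were higher in the first and 16.6 % lower in the second. The genes and the lists were chosen with earlier results of these data known.

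Short motifs were counted in the 250 bases before each annotated gene start, on both strands. ACGTG was found for 4 of the 10 genes and in 22.9 % of 27443 such windows. ACTCAT, the core of an element bound by C and S1 bZIP factors before proline dehydrogenase, was found for 1 of 10 and in 12.3 % of windows. TATCCA, known from sugar-starvation responses in rice, was found for 2 of 10, ASN1 and GAT1_2.1, and in 13.6 %. GATAAG, the core of the I-box, was found for 5 of 10 and in 12.3 %. Neighbouring letters are shown for the genes with a match of ACGTG or ACTCAT, in capitals, to set side by side genes that rose in lst8-1 (BCAT-2), fell in yak1lst8-1 (ASN1, BCAT-2, DIN10, DYL1) and were called in neither (GDH1).
ASN1: cgtgataaCACGTGtacggctc
GDH1: atatcgatCACGTGcctgtgta
BCAT-2: cagaaagaCACGTctagatct
DIN10: aacgtaagACGTGtaacttaa
DYL1: cttcaatgACTCATcatcctta
These lie at chr3:17441585-17441606 (minus strand) for ASN1, chr5:6005987-6006008 (plus) for GDH1, chr1:3287912-3287932 (plus) for BCAT-2, chr5:6833513-6833533 (plus) for DIN10 and chr1:9935636-9935657 (minus) for DYL1. GDH2, GAT1_2.1, IVD and MCCA, which rose in lst8-1, had no ACGTG in this window, nor had SEN1 and DYL1, which were not called there.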

How the data were processed

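Polyadenylated RNA was sequenced from stranded single-end libraries, per the labels. The submitters' processing notes name TopHat2 and Bowtie2 and the TAIR10 build, and, per the file headers, 1.85 to 2.22 % of mapped reads were dropped because their best alignment score was tied. The authors deposited whole-number counts of reads for 33602 gene models per library. Use of strand in counting is not given in the sources used here.

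The counts went into edgeR 4.0.16 (R 4.3.3): filterByExpr by genotype, TMM scaling and 1 robust quasi-likelihood model of genotype over all 18 libraries (12 residual degrees of freedom, common biological coefficient of variation 10.8 %). Tests were two-sided and adjusted by the Benjamini-Hochberg method over 20619 genes. SE came from the fold change and F, and intervals from SE and the t distribution. DESeq2 1.42.0, other scalings, no filter, a replicate block, fits of only the groups compared and each library left out were alternatives. No library pair differed by as little as counting noise (chi-square per degree of freedom 2.99 to 22.8). Positions and sequences are RefSeq's, TAIR10.1, which matched 32835 gene models.

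The 10 genes and the lists were chosen with earlier results of these data known. Named were all 10 genes, up to 3 called genes with the smallest adjusted p of each pathway list in the comparisons of lst8-1 with Col0 and of yak1lst8-1 with lst8-1, and the 2 nearest genes by correlation. Relatives and partner subunits of the 10 genes, among them AT2G33830, were named outside that rule.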

Additional observations from a re-analysis of the deposited data

Results flagged for a closer look

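Effects of yak1 were called different between the lst8-1 and Col0 backgrounds for 2 of the 10 genes, by the interaction test in edgeR. Of all genes tested, 3.47 % were called there and 1.35 % were called lower. For GDH2 the log2 fold change of yak1lst8-1 against lst8-1 was −1.25 and that of yak1 against Col0 −0.17, a difference of −1.08 ± 0.23 (SE, adjusted p = 0.0179, 95 % interval −1.59 to −0.57). For BCAT-2 the corresponding values were −1.81 and −0.17, a difference of −1.64 ± 0.38 (adjusted p = 0.0227, 95 % interval −2.46 to −0.81). Leaving out each of 12 libraries in turn kept both differences negative, at −1.28 to −0.90 for GDH2 with 10 of 12 called and at −2.03 to −1.45 for BCAT-2 with 5 of 12 called. With only the groups compared, the GDH2 call was lost (−1.08, adjusted p = 0.0683).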

How the results depend on the processing

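Of 1140 values recomputed for the 10 genes, 1088 kept their side of the threshold, 39 lost a call, 13 gained one and 0 called values reversed. Some values that were not called changed sign, as SEN1 in lst8-1 against Col0 did without Col0 replicate 3 (from −0.51 to 0.08). The number of the 10 genes called in yak1lst8-1 against yak1 went from 3 to 1 with no filter on low counts, to 1 with only the groups compared, and to between 0 and 3 with 1 library left out; for the interaction it went from 2 to 1 with only the groups compared, where GDH2 was lost, and to between 0 and 3 with 1 library left out. Leaving out 1 library gave 5 to 7 calls in lst8-1 against Col0, 1 to 2 in yak1 against Col0, 2 to 4 in yak1lst8-1 against Col0 and 6 in yak1lst8-1 against lst8-1. DESeq2 called 1 in maktor1g1maktor5g against Col0. The cause was not tested. Over all genes, calls in yak1 against Col0 went from 2446 to 929 with only the groups compared, those in yak1lst8-1 against yak1 from 617 to 333 (299 to 754 with 1 library left out), and those of the interaction from 715 to 338 (347 to 839). From 14 calls each, maktor1g1 gave 104 and maktor1g1maktor5g 154 with DESeq2; 1 library left out gave 6 to 17 and 8 to 25, and the latter also gave 32 with library totals, 23 with no filter and 5 with only the groups compared. The 2 calls between both maktor genotypes became 1 with library totals or only the groups compared, and 0 to 1 with 1 library left out.

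Replicate numbers were not taken to pair libraries. Deviations from genotype means correlated above 0.1 in 31 of 45 same-numbered pairs but in 2 of 15 pairs numbered 2; 14 of 18 libraries correlated best with their own number. A fit with the replicate block called 4 of the 10 genes in yak1lst8-1 against Col0 (IVD added, adjusted p = 0.0348) and 3 in the interaction (GAT1_2.1 added, −2.37, adjusted p = 0.0478), and changed no other call among the 10. Over all genes it called 4111 in yak1 against Col0, 1604 in yak1lst8-1 against yak1, 1889 in the interaction, 238 in maktor1g1 and 653 in maktor1g1maktor5g. Low counts of GAT1_2.1 and BCAT-2 outside lst8-1 (13 and 18 counts at the least) limit their precision there.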
